A study of Homo sapiens with 12 samples.

Results

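The response to doxycycline that 3 derivatives of a neuroblastoma cell line had in common was measured by RNA sequencing. Members were chosen in 2 steps. Each doxycycline library was set against the untreated library of the same line and replicate number, which gave 6 pairs, and a gene had to move in the same direction in all 6 pairs. It also had to pass limma's test of the common change at a Benjamini-Hochberg adjusted p below 0.05. Of 16842 genes tested, 265 rose (1.57%) and 307 fell (1.82%) by this rule, so the common response held 572 genes (3.4%). Without the test, 1461 genes were higher in all 6 pairs (8.67%) and 1406 lower (8.35%). Tested genes had to reach 1 TPM in 2 libraries, and 14 of the 265 rises would not have met this in their untreated libraries alone, nor 5 of the 307 falls in their treated ones, so the filter itself favoured a difference in these.

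The cells were Kelly, an established human MYCN-amplified neuroblastoma line of the adrenergic, neuron-like kind. Each derivative carries a doxycycline-inducible short hairpin RNA (shRNA): against RCOR1 (shRCOR1), against RCOR2 (shRCOR2), or a non-targeting control (shCTRL). Every line was sampled untreated and after doxycycline at 2 µg/mL, with 2 replicates per group and 12 libraries in all. Sample titles and the series design give 72 h of treatment while the treatment protocol gives 24 or 48 h, and this conflict could not be settled. The labels do not say whether replicates are separate cultures or whether each derivative is a clone or a pool. P-values for changes within or between lines measure the spread between replicate libraries, which may therefore be technical. P-values for the common change measure the spread of the pair changes, which also holds differences between lines. That test counts the 2 pairs of a line as separate units. With line means in place of pairs, a fit with fewer values, 2 genes rose and 0 fell. All treated libraries received the drug and all of them switch on a hairpin. Doxycycline itself, expression of any hairpin and handling of the cultures therefore cannot be told apart in a change that all 3 lines share.

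Doxycycline is a tetracycline, a class of antibiotics that bind bacterial ribosomes and can also slow the related ribosomes inside mitochondria. The integrated stress response is the shared route by which cells answer mitochondrial trouble, amino acid shortage and misfolded protein: kinases phosphorylate the initiation factor eIF2, general translation falls, and the transcription factor ATF4 is made from its message more efficiently. ATF4 then drives genes for amino acid synthesis, uptake and tRNA charging, together with secreted stress factors and regulators of cell death. These are background facts about the pathway and do not say what acted in these libraries.

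Expression is given in TPM, a length-normalised share of the RNA in a library. Changes are differences in log2(TPM + 1), doxycycline minus untreated, with the standard error (SE) over 6 pairs, and are smaller than the true fold for genes near 1 TPM. In bulk RNA, fewer cells of a kind and less RNA per cell cannot be told apart. The files hold no read counts. The depths implied by coverage spanned 2.14-fold, and 14758 to 16026 genes per library reached 1 TPM. More genes reached 1 TPM after doxycycline in all 6 pairs, with means of 15220 and 15500 (exact sign-flip test, two-sided, p = 0.03125, the smallest that 6 pairs allow). Mitochondrial transcripts took 17.9% of TPM untreated and 16.6% with doxycycline on average, lower in 5 of 6 pairs (exact sign-flip test, two-sided, p = 0.0625). Whether these library measures contribute to the changes below was not tested. All 10 neuroblastoma markers examined were expressed, led by MYCN, CHGA and DBH, and their summed level was 7087 to 9066 TPM untreated and 5124 to 8103 TPM with doxycycline. Of 13 leukocyte and epithelial markers, 9 stayed below 1 TPM in all 12 libraries, among them the leukocyte antigen PTPRC, and 4 of these were at 0. The list's summed level ran from 6.50 to 12.4 TPM untreated and from 6.73 to 31.4 TPM with doxycycline, and its most abundant members were the keratins KRT19, KRT18 and KRT8. Fibroblast and endothelial markers summed to 39.5 to 165 TPM untreated and 38.2 to 162 TPM with doxycycline, and 5 of the 13, among them DCN and PECAM1, stayed below 1 TPM. Markers of Schwann cell precursors summed to at most 29.1 TPM in any library.

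The hairpin targets behaved differently from one another. RCOR1 was 8.32 and 9.08 TPM in untreated shRCOR1 and 4.795 and 5.07 TPM after doxycycline, a change of -0.71, against -0.11 in shCTRL and 0.01 in shRCOR2. RCOR2 was 55.4 and 49.9 TPM in untreated shRCOR2 and 17.7 and 20.5 TPM after doxycycline, a change of -1.42. It was also lower in shRCOR1, by a change of -0.94, and by -0.18 in shCTRL. RCOR2 therefore satisfied the rule for a common fall (-0.84 ± 0.19 SE, limma adjusted p = 0.0491), although its changes differed between lines (limma F test, adjusted p = 0.00174). RCOR2 is thus counted among the 307 falls but is a hairpin target. RCOR1 and the third family member, RCOR3, were not called.

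By the size of the smallest of the 6 pair changes, the leading rises were GDF15, INHBE, CHAC1, ADM2, ASNS, DDIT3, ULBP1, BBC3, SLC7A11, VLDLR, SAMD11 and SLC1A4, of which GDF15, CHAC1, DDIT3 and VLDLR are on the list of ATF4 targets. The leading falls were LZTS1, C2CD4A, SNORA73B, HS3ST2, SPC25, PLXND1, KIF20A, CENPE, CCNB1, UQCRFS1, CAMK2A and PIMREG. Among the members, 35 rises and 12 falls reached 2-fold, and the median common change was 0.57 for rises and -0.56 for falls, against 0.03 over all genes tested. In 77 of the 265 rises all 6 doxycycline libraries lay above all 6 untreated ones, and 110 of the 307 falls lay wholly below. Over all genes tested the same was true of 174 (1.03%) and 239 (1.42%).

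**Figure D1:**
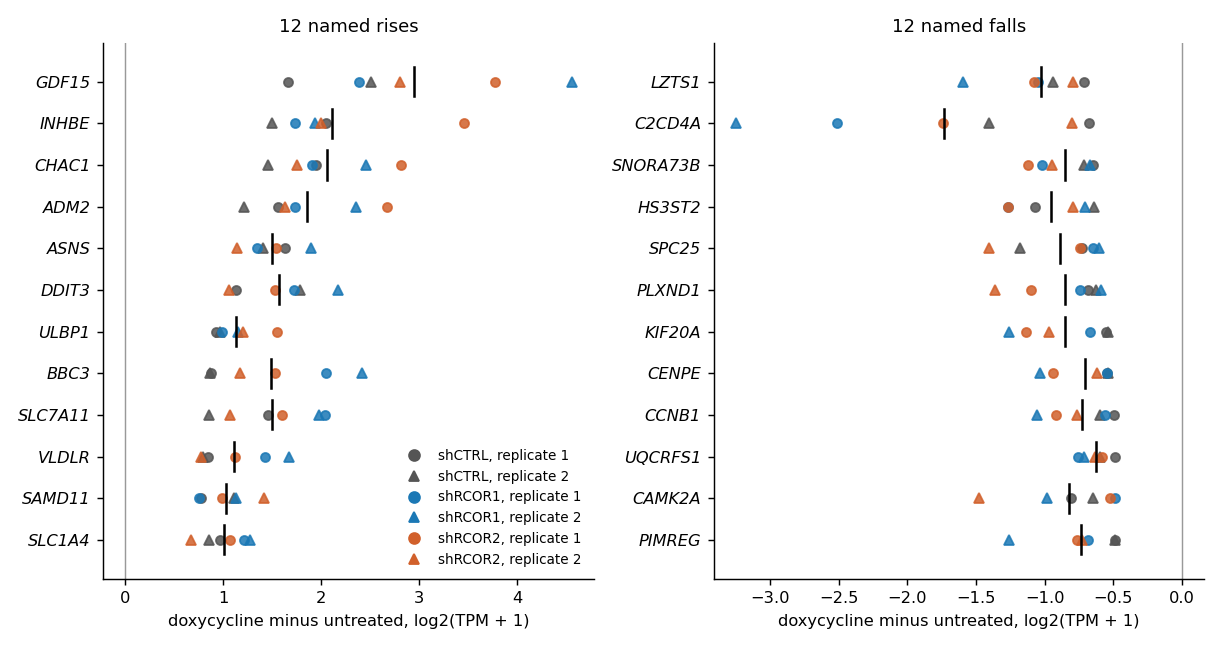
Change of the 12 leading rises (left) and 12 leading falls (right) in each of the 6 pairs, as doxycycline minus untreated log2(TPM + 1); colours give the line, circles replicate 1, triangles replicate 2, and black bars the common change. No point crosses 0, and for most of the genes shown the largest change belongs to a knockdown line.

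The number of genes called depended on having all 6 pairs. Without shCTRL replicate 1 the counts were 255 rises and 252 falls. Leaving out shCTRL replicate 2 gave 22 and 6, shRCOR1 replicate 1 gave 45 and 39, shRCOR1 replicate 2 gave 35 and 20, shRCOR2 replicate 1 gave 36 and 15, and shRCOR2 replicate 2 gave 56 and 34. With the deposited FPKM in place of TPM, 339 genes rose and 245 fell, so rises made up 58.0% of calls against 46.3% with TPM. The calls nearest the threshold were ZNF286B and the mitotic kinase gene CDK1, both with a limma adjusted p of 0.0498, and just outside it lay MCUR1 (0.0501) and TBC1D10A (0.0502). A further 8 genes passed the test but moved the other way in 1 pair: MTMR3, OPTN, ZFAND3, ATF5, MALAT1, HPDL, UHRF1 and SNORD88A.

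Of the transcription factors of the stress response, ATF4, DDIT3 and ATF3 rose by the rule, and ATF5, CEBPB, CEBPG and NFIL3 missed it. ATF4 (chr22) rose from a median of 462 TPM over the 6 untreated libraries (lowest 411, highest 472) to 674 TPM (518 to 941), with no overlap. Its common change was 0.61 ± 0.12 SE (limma adjusted p = 0.0374), and it differed between lines, with 0.53 in shCTRL, 0.99 in shRCOR1 and 0.30 in shRCOR2 (limma F test, adjusted p = 0.0178). DDIT3 (chr12:57516588-57521737), which encodes CHOP, a factor tied to stress-induced cell death, was 12.5 to 29.1 TPM untreated (median 18.3) and 33.6 to 103 TPM with doxycycline (median 50.8). DDIT3 rose in each pair, by 1.06 to 2.17, and its common change was 1.57 ± 0.15 SE (limma adjusted p = 0.00768). ATF3, a repressor and activator induced downstream of ATF4, went from a median of 24.9 TPM (19.8 to 32.8) to 66.0 TPM (35.8 to 129), again with no overlap. TRIB3, a pseudokinase that feeds back on ATF4 and CHOP, was 17.8 to 56.7 TPM untreated and 39.99 to 168 TPM treated, and untreated shCTRL replicate 2 lay within the treated range. The common change was 1.36 ± 0.23 SE for ATF3 and 1.49 ± 0.23 SE for TRIB3.

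Enzymes and feedback regulators downstream of these factors were among the rises. CHAC1 (chr15:40952962-40956512), which breaks down the antioxidant glutathione, was 12.4 and 28.5 TPM in untreated shCTRL, 14.2 and 13.4 TPM in untreated shRCOR1 and 9.63 and 19.5 TPM in untreated shRCOR2. After doxycycline it stood at 50.3 and 80.0 TPM in shCTRL, 55.9 and 77.9 TPM in shRCOR1, and 73.7 and 67.9 TPM in shRCOR2. Every treated library was above every untreated one, and the common change was 2.05 ± 0.17 SE (limma adjusted p = 0.0068), a 4.15-fold rise on the TPM + 1 scale. ASNS (chr7:97851677-97872542), asparagine synthetase and a textbook ATF4 target, was 126 and 272 TPM in untreated shCTRL, 153 and 155 TPM in shRCOR1 and 131 and 190 TPM in shRCOR2. With doxycycline ASNS reached 393 and 724 TPM in shCTRL, 390 and 579 TPM in shRCOR1, and 381 and 420 TPM in shRCOR2. Its common change, 1.49 ± 0.10 SE, had the smallest adjusted p of the 12 leading rises (limma, 0.00219) and was 1.52, 1.62 and 1.34 in the shCTRL, shRCOR1 and shRCOR2 lines. The largest difference between lines in the ASNS change was 0.28, with a 95% interval from -0.46 to 1.02.

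**Figure D2:**
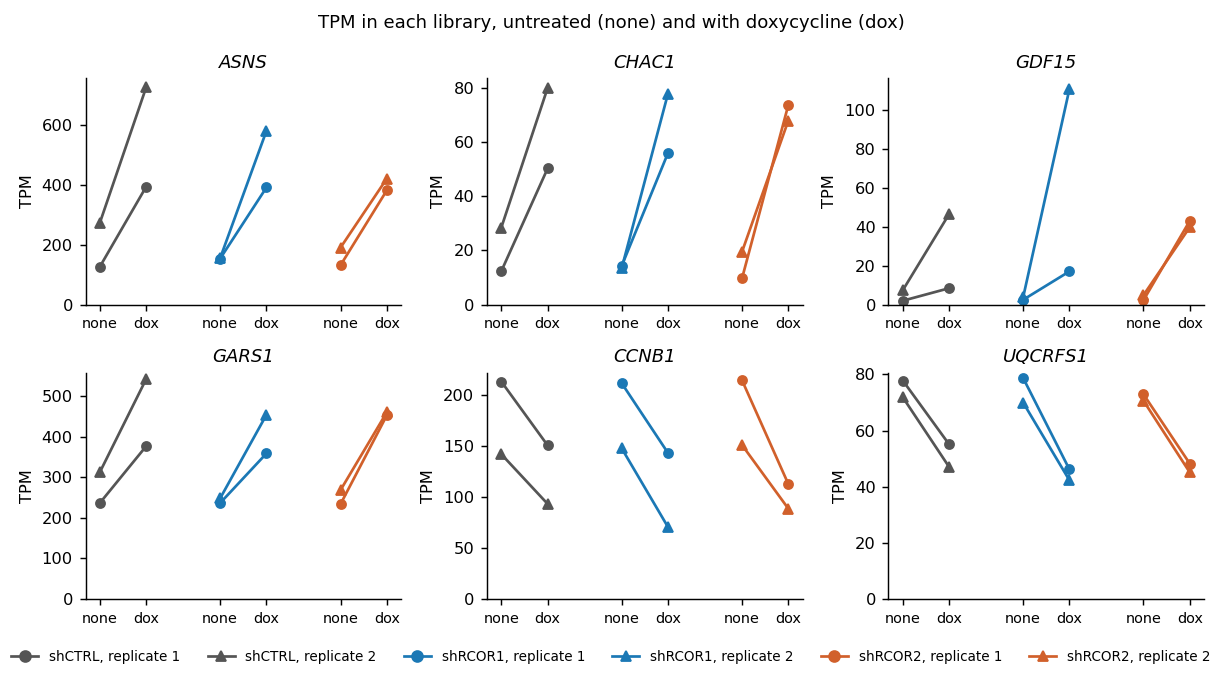
TPM of 6 members in all 12 libraries on linear axes from 0; each line joins the untreated (none) and doxycycline (dox) library of 1 pair, coloured by cell line, with circles for replicate 1 and triangles for replicate 2. ASNS, CHAC1, GDF15 and GARS1 rise in all 6 pairs and CCNB1 and UQCRFS1 fall in all 6, while the starting levels of ASNS and CCNB1 differ between replicates of the same line.

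SESN2, an inhibitor of the growth kinase complex mTORC1, went from a median of 22.4 TPM (15.8 to 55.03) to 78.2 TPM (48.7 to 143), and DDIT4, which inhibits the same complex, from 143 TPM (93.2 to 366) to 358 TPM (316 to 769). The common changes were 1.57 ± 0.25 SE for SESN2 and 1.34 ± 0.16 SE for DDIT4, and in both genes untreated shCTRL replicate 2 overlapped the treated libraries. Within the list of ATF4 integrated stress targets, 23 of 25 genes were tested, 16 rose and 0 fell, and 17 were higher in all 6 pairs. At an unadjusted limma p below 0.05, which here and in all list counts below also requires 1 direction in all 6 pairs, 17 rose and 0 fell. Of all 16842 genes tested, 1303 rose and 1247 fell at that unadjusted threshold, the background for every such list count. The list's median change was 0.99 against 0.03 over all genes tested, and was 0.84 in shCTRL, 1.34 in shRCOR1 and 0.83 in shRCOR2. Its 16 calls became 12 without shCTRL replicate 1 or shRCOR2 replicate 2, and 4 to 7 without any 1 of the other 4 pairs, while its median stayed between 0.85 and 1.17. The members that missed the rule were ATF5, CEBPB, CEBPG, PPP1R15A, NFIL3, BEX2 and TSPYL2. ATF5 changed by 1.20, 1.58 and 0.18 in shCTRL, shRCOR1 and shRCOR2, CEBPB by 0.99, 1.22 and -0.20, and CEBPG by 0.55, 1.02 and -0.51, with the lowest value of each in shRCOR2.

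Secreted and surface stress factors held the largest rises. GDF15 (chr19:18374731-18389176), a hormone-like cytokine released by stressed cells, was 1.97 and 7.38 TPM in untreated shCTRL, 2.46 and 3.76 TPM in shRCOR1 and 2.23 and 4.85 TPM in shRCOR2. After doxycycline it was 8.40 and 46.5 TPM in shCTRL, 17.05 and 111 TPM in shRCOR1, and 43.0 and 39.8 TPM in shRCOR2. All treated values lay above all untreated ones, and the common change was 2.95 ± 0.33 SE (limma adjusted p = 0.0096). Treated replicates of shCTRL and shRCOR1 lay far apart. INHBE, an inhibin beta subunit, rose by 2.11 ± 0.23 SE from a median of 3.56 TPM (1.98 to 14.7) to 25.6 TPM (11.4 to 43.0). ADM2, a calcitonin-family peptide hormone, rose by 1.86 ± 0.19 SE from 2.59 TPM (1.50 to 8.37) to 15.1 TPM (8.65 to 20.7), and STC2, a secreted glycoprotein, by 1.52 ± 0.25 SE. ULBP1, a ligand that marks stressed cells for natural killer cells, rose by 1.13 ± 0.11 SE and its 6 treated values (7.06 to 12.3 TPM) lay above its untreated ones (3.15 to 4.91 TPM). FGF21, a starvation hormone, stayed close to 1 TPM: its untreated median was 0.168 TPM and its treated median 1.11 TPM. A group of 7 such factors was picked after their values were seen (GDF15, INHBE, ADM2, STC2, ULBP1, NTS and FGF21), so that all 7 were called carries no weight. The smallest of their 7 adjusted p-values in the limma F test of a difference between lines was 0.0955, for STC2.

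ATF4 acts through a composite DNA element known as the C/EBP-ATF response element. Its core, TGATGNAA, was searched on both strands in the 250 bases before the RefSeq start of each gene, because these members moved together. It was present in 3.19% of 27305 RefSeq promoters and in 1.31% of the 10874 promoters that matched a tested gene. Among the called ATF4 targets, 13 of 16 had a promoter in the table and 3 of these held the core (23.1%): CHAC1, ATF3 and FGF21. FGF21 reached 1 TPM in 1 untreated and 3 treated libraries, so it passed the filter on low values only through the treated ones. ASNS, from the asparagine and serine list, held it too. The windows below, of the coding strand in RefSeq's GRCh38.p14, show the core in capitals, reading as its reverse complement in CHAC1 and FGF21. They lie at chr15:40953251-40953280 (CHAC1, plus strand), chr7:97872458-97872487 (ASNS, minus strand), chr1:212565205-212565234 (ATF3, plus strand) and chr19:48755459-48755488 (FGF21, plus strand).
CHAC1: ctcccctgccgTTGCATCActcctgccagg
ASNS: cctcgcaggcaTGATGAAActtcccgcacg
ATF3: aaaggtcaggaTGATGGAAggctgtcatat
FGF21: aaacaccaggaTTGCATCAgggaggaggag
A match describes letters in a window and is neither a bound site nor a cause. The capitals start 209, 68, 191 and 54 bases before the start in CHAC1, ASNS, ATF3 and FGF21.

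Amino acid synthesis, uptake and charging rose in part. Serine is made from a glycolytic intermediate by PHGDH, PSAT1 and PSPH, and feeds the one-carbon cycle in mitochondria. PHGDH went from a median of 383 TPM (348 to 435) to 574 TPM (532 to 657) and PSPH from 45.1 TPM (39.8 to 64.6) to 72.7 TPM (65.4 to 101.2), each without overlap. The common changes, 0.61 ± 0.06 SE for PHGDH and 0.68 ± 0.07 SE for PSPH, were nearly even between lines, at 0.57, 0.62 and 0.63 for PHGDH in shCTRL, shRCOR1 and shRCOR2. PSAT1, the enzyme between them, did not follow. It changed by 0.73 in shCTRL, 1.10 in shRCOR1 and -0.61 in shRCOR2, and these changes differed (limma F test, adjusted p = 0.000912). The mitochondrial one-carbon enzymes ALDH1L2 and MTHFD1L rose by 0.87 ± 0.10 SE and 0.40 ± 0.06 SE. The cytosolic one-carbon enzyme MTHFD1 and the thymidylate synthase TYMS, which supplies DNA synthesis, fell by 0.54 and 0.58 on the log2 scale. Of 16 genes in the list of serine, one-carbon and asparagine synthesis, 5 rose and 2 fell, and its median change was 0.14.

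Among 13 amino acid transporters 4 rose and 0 fell, with 5 and 0 at an unadjusted limma p below 0.05. SLC7A11, the cystine importer of the xCT system, went from a median of 6.01 TPM (4.17 to 16.7) to 20.7 TPM (13.7 to 32.9), a common change of 1.50 ± 0.16 SE (limma adjusted p = 0.00863). Its partner subunit SLC3A2 went from 152 TPM (143 to 174) to 294 TPM (233 to 410) without overlap, by 0.97 ± 0.12 SE. SLC1A4, which carries serine and alanine, rose by 1.01 ± 0.10 SE, and the glycine carrier SLC6A9 by 0.86 ± 0.14 SE. SLC7A5, another light chain that pairs with SLC3A2, moved in opposite directions: 0.84 in shCTRL, 1.68 in shRCOR1 and -1.45 in shRCOR2. The list's medians were 0.74, 1.01 and -0.10 in these lines.

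Cytosolic aminoacyl-tRNA synthetases charge tRNAs with their amino acids. Of 20 tested, 6 rose and 0 fell (8 and 0 at an unadjusted limma p below 0.05): SARS1, GARS1, WARS1, CARS1, YARS1 and TARS1. SARS1, for serine, went from a median of 381 TPM (364 to 474) to 705 TPM (611 to 926), by 0.89 ± 0.09 SE (limma adjusted p = 0.00768). GARS1, for glycine, was 236 and 312 TPM in untreated shCTRL, 236 and 248 TPM in shRCOR1, and 234 and 268 TPM in shRCOR2. It became 376 and 542 TPM in shCTRL, 359 and 454 TPM in shRCOR1, and 452 and 460 TPM in shRCOR2. Neither SARS1 nor GARS1 showed any overlap between treated and untreated libraries. The other 14 did not pass the rule, and FARSB, a phenylalanine synthetase subunit, changed by -0.01, -1.44 and 0.01 in shCTRL, shRCOR1 and shRCOR2.

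Among the gene lists, that of mitosis held the most falls, 41 of the 307. The mitosis list holds cyclins, kinases, spindle motors and kinetochore proteins that are transcribed late in the cell cycle and are therefore read as markers of dividing cells. Of its 48 members 41 fell and 0 rose (46 and 0 at an unadjusted limma p below 0.05), and 46 were lower in all 6 pairs, where 8.35% of all genes tested were. CCNB1 (chr5:69167135-69178245), cyclin B1, which drives entry into mitosis, was 213 and 142 TPM in untreated shCTRL, 211 and 147 TPM in shRCOR1, and 214 and 151 TPM in shRCOR2. Doxycycline libraries had 150 and 93.0 TPM in shCTRL, 143 and 70.4 TPM in shRCOR1, and 112 and 88.4 TPM in shRCOR2. Replicate 1 was above replicate 2 in all 6 groups, so treated and untreated ranges overlapped slightly even though each pair fell. CCNB1's common change was -0.73 ± 0.09 SE (limma adjusted p = 0.0104), a level of 0.602 times the untreated one on the TPM + 1 scale.

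PLK1, the polo-like mitotic kinase, fell from a median of 119 TPM (92.0 to 144) to 63.7 TPM (39.7 to 104), by -0.86 ± 0.14 SE. KIF20A, a motor of the central spindle, fell from 118 TPM (95.02 to 141) to 64.3 TPM (39.0 to 95.4), by -0.86 ± 0.11 SE. CENPE, a motor that attaches chromosomes to microtubules, showed no overlap, at 29.2 to 35.6 TPM untreated and 13.8 to 23.2 TPM treated, and SPC25, a subunit of the NDC80 kinetochore complex, likewise at 14.8 to 24.2 TPM and 5.96 to 14.1 TPM. Their common changes were -0.70 ± 0.10 SE and -0.89 ± 0.12 SE. The proliferation marker MKI67 changed by -0.78 ± 0.11 SE and the DNA-untangling enzyme TOP2A by -0.71 ± 0.12 SE, both without overlap. The list's median was -0.60, and within lines it was -0.38 in shCTRL, -0.66 in shRCOR1 and -0.77 in shRCOR2. In shCTRL, 18 of 48 mitosis genes had both treated libraries below both untreated ones, against 15.6% of all genes tested.

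The size of the mitotic fall differed between lines for some members. PTTG1, securin, changed by -0.35 in shCTRL, -1.30 in shRCOR1 and -1.50 in shRCOR2 (limma F test, adjusted p = 0.00242). CCNA2, cyclin A2, changed by -0.37, -1.49 and -1.01 in the same order (adjusted p = 0.00304 by the same test). In total 6 of the 48 differed between lines by this test, and 30.8% of all genes tested did. The 41 calls became 34 without shCTRL replicate 1, and 1 to 11 without any 1 of the other pairs, while the median stayed between -0.67 and -0.55. Members outside the rule were BIRC5, SGO1, KIF18A, PRC1, CDC25C, KIF15 and BUB3, and BIRC5, survivin, missed it narrowly (-1.02, limma adjusted p = 0.0502).

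Many mitotic promoters carry a cell cycle genes homology region, the letters TTTGAA close to the start, which the DREAM and MuvB complexes bind, often beside CCAAT boxes. TTTGAA, on either strand, stood in the 250 bases before the start of 18 of the 36 called mitosis genes with a RefSeq promoter (50.0%). It was present in 8.24% of matched promoters of genes tested, which covered 10874 of 16787 gene symbols, and in 13.6% of all promoters in the table. CCAAT, on either strand, stood in 28 of the 36 (77.8%), against 35.1% and 33.0%. In the whole tested mitosis list TTTGAA stood in 21 of 41 promoters (51.2%) and CCAAT in 31 (75.6%). These shares therefore belong to the list and do not set its called members apart. Windows from members named here show TTTGAA, or its reverse complement in KIF11, in capitals, on the coding strand of GRCh38.p14. Their places are chr16:23678848-23678877 (PLK1), chr2:26786026-26786055 (CENPA), chr10:92593090-92593119 (KIF11), chr15:40161034-40161063 (BUB1B) and chr15:59105105-59105134 (CCNB2), all of them on the plus strand.
PLK1: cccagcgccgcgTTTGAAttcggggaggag
CENPA: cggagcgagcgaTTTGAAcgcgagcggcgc
KIF11: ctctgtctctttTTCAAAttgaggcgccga
BUB1B: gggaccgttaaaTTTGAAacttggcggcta
CCNB2: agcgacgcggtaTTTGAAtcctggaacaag
The capitals begin 18 to 29 bases before the RefSeq start in these 5 promoters, which were picked from the 18. Over the 18, the match nearest the start began 17 (CKAP2L) to 247 bases (SPC25) before it. It lay at 161 bases in CDK1 and 151 in TOP2A. The common changes of the 5 genes were -0.86 for PLK1, -0.78 for CENPA, -0.64 for KIF11, -0.56 for BUB1B and -0.48 for CCNB2. The motif shares describe lists whose mitotic membership was known beforehand. For the 265 rises and 307 falls as a whole, fewer than 80% had a promoter in the table, so no motif share is given for them.

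Genes of DNA replication followed in smaller number. Of 42 tested, 9 fell and 0 rose, 18 were lower in all 6 pairs, and 18 fell and 0 rose at an unadjusted limma p below 0.05. The 9 were UNG, FEN1, CDC6, CDC45, GINS3, POLD1, MCM2, POLE2 and DUT. UNG, which removes uracil from DNA, went from a median of 125 TPM (86.4 to 158) to 54.9 TPM (44.5 to 134), by -0.95 ± 0.16 SE, with smaller falls in shCTRL (-0.42) than in shRCOR1 (-1.07) and shRCOR2 (-1.37), a difference that did not pass the limma F test (adjusted p = 0.103). FEN1, the flap endonuclease, changed by -0.64 ± 0.12 SE, and CDC6, which loads the replicative helicase, by -0.61 ± 0.12 SE, and their changes were -0.59, -0.68 and -0.64, and -0.57, -0.62 and -0.66, in shCTRL, shRCOR1 and shRCOR2. The list's line medians were -0.41, -0.32 and -0.39. Replicates differed within shCTRL and shRCOR1: the list's pair medians were -0.13 and -0.67 in replicates 1 and 2 of shCTRL, -0.10 and -0.55 in shRCOR1, and -0.36 and -0.41 in shRCOR2. FEN1 in shCTRL went from 146 to 131 TPM in replicate 1 and from 93.3 to 45.5 TPM in replicate 2. Replication-dependent histone genes gave 0 calls of 42 (1 rise at an unadjusted limma p below 0.05), with line medians of 0.25, -0.24 and 0.63. Calls among the replication genes came to 2 with quantile normalization, 5 with FPKM and 0 or 1 without any 1 pair other than shCTRL replicate 1.

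Of 76 messages for cytosolic ribosomal proteins, 18 rose and 0 fell (52 and 0 at an unadjusted limma p below 0.05), 52 were higher in all 6 pairs where 8.67% of all genes tested were, and the median change was 0.24. The line medians were 0.22 in shCTRL, 0.19 in shRCOR1 and 0.34 in shRCOR2. Of the 76, 19 differed between lines by the limma F test, where 30.8% of all genes tested did. RPS2, of the small subunit, changed by 0.22 in shCTRL, -0.01 in shRCOR1 and -0.99 in shRCOR2 (adjusted p = 0.000284 by that test), from 5542 and 5114 TPM to 2953 and 2447 TPM in shRCOR2. RPL34 rose from a median of 1043 TPM to 1439 TPM without overlap, by 0.44 ± 0.07 SE (limma adjusted p = 0.0226), and RPL5, a subunit that also binds the p53 regulator MDM2, by 0.37 ± 0.06 SE. The number called was 5 to 23 with other scalings, namely 5 with quantile normalization, 6 with median-of-ratios scaling and 11 in TPM without mitochondrial genes. It was 0 to 4 without any 1 pair and 0 to 2 without any 1 line. The list's median stayed positive, at 0.16 to 0.27, while that of all genes moved between -0.01 and 0.05. Ribosomal protein genes have many near-identical pseudogene copies, and the rule for reads with several alignments is unknown here. Translation elongation factors belong to the same class of messages with a 5′ terminal pyrimidine tract, and 3 of 6 in a list set after values were seen rose, EEF2 (0.48 ± 0.08 SE), EEF1B2 (0.35 ± 0.06 SE) and EEF1A1 (0.26 ± 0.05 SE). Among 28 small nucleolar RNA hosts, also listed after values were seen, 4 rose, GAS5 (0.72 ± 0.07 SE), SNHG32, ZFAS1 and SNHG29, while SNHG3 fell by 0.67 on the log2 scale. The other 23 were not called, and the median change of these hosts was 0.04, against 0.03 over all genes tested. SNORA73B, a small nucleolar RNA from the same region of chromosome 1 as SNHG3, was 13.7 to 21.9 TPM untreated and 6.98 to 13.6 TPM treated, and the pair may share reads. The 7SK RNA gene RN7SK, which has many copies in the genome, rose by 1.51 ± 0.30 SE, and HEXIM1, its protein partner in holding back the elongation kinase P-TEFb, fell by 0.64 on the log2 scale.

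**Figure D3:**
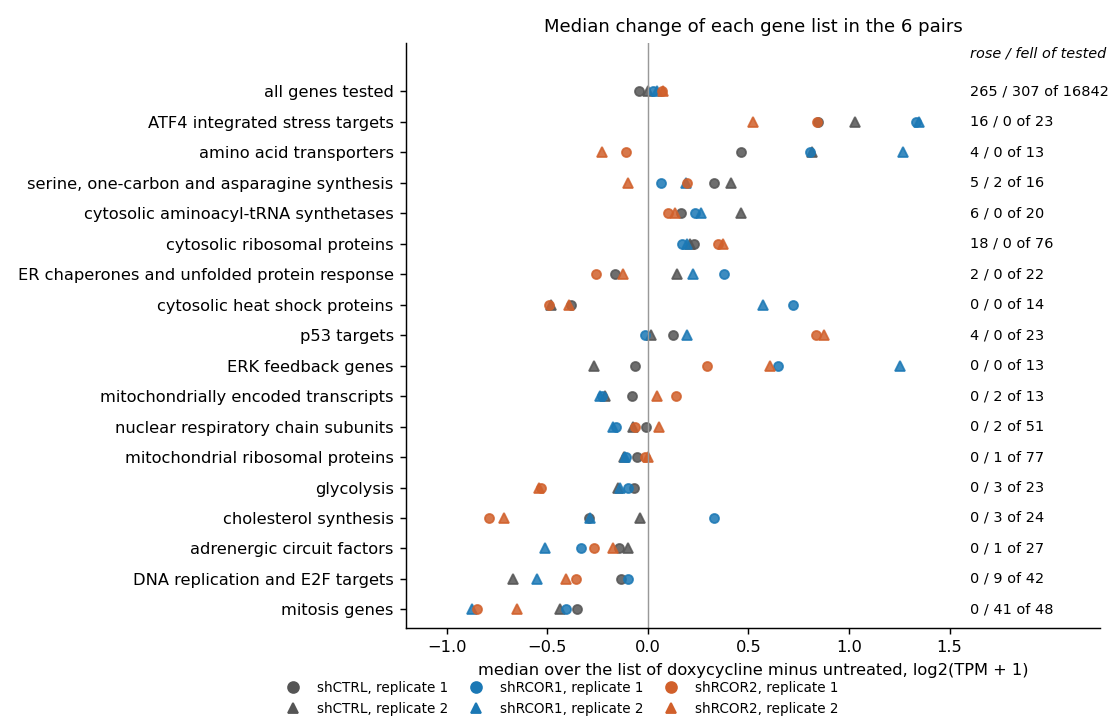
Median change of 17 gene lists and of all genes tested in each of the 6 pairs (log2(TPM + 1), doxycycline minus untreated; colours for lines, circles for replicate 1 and triangles for replicate 2), with the number that rose, fell and were tested at the right. Mitosis, replication, glycolysis and adrenergic circuit lists lie below 0 in all 6 pairs. ATF4 targets, aminoacyl-tRNA synthetases and ribosomal proteins lie above 0 in all 6 pairs, while heat shock, transporter and ERK feedback lists spread by line.

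Mitochondrial lists had few calls. Among 13 mitochondrially encoded messages, MT-CO1 and MT-ND5, for subunits of complexes IV and I, fell by 0.47 and 0.40 on the log2 scale and 0 rose, while 4 fell and 3 rose at an unadjusted limma p below 0.05. The list's median was -0.06. Of 51 nuclear respiratory chain genes 2 fell and 0 rose (10 and 0 at an unadjusted limma p below 0.05). UQCRFS1 (chr19:29205320-29213151), the Rieske iron-sulfur subunit of complex III, was 77.8 and 71.8 TPM in untreated shCTRL, 78.7 and 69.9 TPM in shRCOR1, and 72.9 and 70.6 TPM in shRCOR2. It was 55.1 and 47.0, 46.1 and 42.3, and 48.2 and 45.1 TPM after doxycycline in the same order. All 6 treated libraries lay below all untreated ones, by -0.63 ± 0.07 SE (limma adjusted p = 0.00768), and the largest difference between lines was 0.19 (95% interval -0.03 to 0.41). ATP5MC1, a subunit of the ATP synthase ring, fell by 0.53 on the log2 scale and differed between lines (limma F test, adjusted p = 0.0476). Lower in all 6 pairs were 11 of the 51, where 8.35% of all genes tested were. Of 77 mitochondrial ribosomal proteins 1 fell, MRPS28, and 0 rose (16 and 4 at an unadjusted limma p below 0.05), and 17 were lower in all 6 pairs. The medians of the respiratory chain and mitochondrial ribosomal lists were -0.10 and -0.05. Of 16 mitochondrial chaperones and proteases 0 were called by limma, and 0 had an unadjusted p below 0.05 with 1 direction in all 6 pairs. HSPE1, a mitochondrial chaperonin, changed by -0.28 with an unadjusted limma p of 0.0163 (adjusted 0.116) and was lower in 5 of 6 pairs. The median change of that list was 0.05.

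Lists for other arms of stress had between 0 and 4 calls each. XBP1, a transcription factor of the endoplasmic reticulum's unfolded protein response, went from a median of 112 TPM (106 to 126) to 216 TPM (163 to 252) without overlap, by 0.88 ± 0.09 SE (limma adjusted p = 0.00768), and its activator ERN1 rose by 0.91 ± 0.18 SE. These were 2 of 22 in that list, whose median was 0.03, and 8 of the 22 differed between lines, where 30.8% of all genes tested did. The chaperone HSPA5 (BiP), the usual index of that response, changed by -0.03 in shCTRL, 0.61 in shRCOR1 and -0.78 in shRCOR2 (limma F test, adjusted p = 0.0075). Cytosolic heat shock genes gave 0 calls of 14, with 0 at an unadjusted limma p below 0.05 and 1 direction, and 12 of the 14 differed between lines. Their medians were -0.43 in shCTRL, 0.71 in shRCOR1 and -0.42 in shRCOR2. Feedback genes of the ERK pathway gave 0 calls of 13 (1 rise at an unadjusted limma p below 0.05), with medians of -0.17, 0.95 and 0.45. Genes of the interferon response, which double-stranded RNA can set off, gave 0 calls of 14 (1 rise and 1 fall unadjusted), and those of the small RNA pathway that processes hairpins 0 of 13 (3 rises unadjusted), by the same test. Of 23 p53 targets 4 rose: the cell cycle inhibitor CDKN1A, the cell death gene BBC3 (PUMA), TP53INP1 and the death receptor gene TNFRSF10B. BBC3 was 9.53 to 14.8 TPM untreated and 20.1 to 55.2 TPM treated, without overlap, and changed by 0.87, 2.23 and 1.35 in shCTRL, shRCOR1 and shRCOR2 (limma F test, adjusted p = 0.016). CDKN1A was 34.2 to 45.1 TPM untreated and 52.1 to 136 TPM treated, and changed by 0.44, 0.96 and 1.66 (adjusted p = 0.00432 by the same test). The p53 list's medians were 0.03, 0.05 and 0.90, highest in shRCOR2.

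Metabolic and lineage lists had few common calls. The glycolytic enzymes TPI1 and PGAM1 and the lactate carrier SLC16A1 fell by 0.38, 0.41 and 0.44 on the log2 scale, 3 of 23 in the list. The sterol synthesis gene LSS and the sterol carrier gene STARD4 fell by 0.85 and 0.69. FADS2, a fatty acid desaturase, was the 1 fall among 12 genes of fatty acid synthesis, and NME1 and RRP1B were the 2 falls among 39 genes of ribosome biogenesis. Of 18 antioxidant genes driven by NRF2, SLC48A1 rose and NQO1 and PIR fell, and of 27 lysosomal genes TFE3, a transcription factor for them, rose. VEGFA, the vascular growth factor, rose by 0.83 ± 0.16 SE, with 0.99 in shCTRL, 1.25 in shRCOR1 and 0.25 in shRCOR2 (limma F test, adjusted p = 0.00829). CHGA, chromogranin A of the secretory granule and a neuroblastoma marker, was 2259 to 3272 TPM untreated and 910 to 2389 TPM treated, and fell in all pairs, by -1.02 ± 0.17 SE (limma adjusted p = 0.0241). NEFH, the heavy neurofilament gene, fell by 0.80 on the log2 scale, and LMO3, a cofactor of the adrenergic transcription circuit, by 0.87, with -0.24 in shCTRL, -1.38 in shRCOR1 and -0.98 in shRCOR2 (limma F test, adjusted p = 0.00733). SCG5, a granule chaperone, rose by 0.74 ± 0.13 SE. MYCN itself was 2000 to 3020 TPM untreated and 1042 to 2928 TPM treated and did not pass (-0.62 ± 0.18 SE, limma adjusted p = 0.0842). EPCAM, an epithelial adhesion gene, was called as a rise although its highest untreated value was 0.542 TPM and its highest treated value 4.12 TPM. For the leukocyte and epithelial list, which holds EPCAM and the keratins, only the summed level was given above. Over its 4 tested members the treated sums were 16.8 and 30.45 TPM in shRCOR1, and 6.485 to 13.41 TPM in the other treated libraries. Whether these genes have a part in the list changes was not tested.

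Leading falls outside these lists were LZTS1, a cytoskeletal regulator, and C2CD4A, HS3ST2, PLXND1 and CAMK2A. LZTS1 went from a median of 21.8 TPM (12.8 to 24.6) to 10.1 TPM (6.18 to 13.4), by -1.03 ± 0.12 SE (limma adjusted p = 0.0104). HS3ST2, a heparan sulfate sulfotransferase, fell from 14.4 TPM (7.26 to 19.6) to 6.87 TPM (4.30 to 10.1), by -0.96 ± 0.11 SE, with -0.86, -0.99 and -1.03 in shCTRL, shRCOR1 and shRCOR2. PLXND1, a semaphorin receptor gene, fell by 0.85 on the log2 scale and most in shRCOR2 (-1.23). C2CD4A fell furthest, by -1.73 ± 0.32 SE, with a change of -2.88 in shRCOR1 against -1.04 in shCTRL. Of the rises outside the lists, SAMD11 was 18.9 to 47.8 TPM untreated and 32.5 to 95.9 TPM treated, so its ranges overlapped, yet its change was even between lines at 0.94, 0.94 and 1.20.

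The control line tells how far these changes occur without an RCOR hairpin. In the shCTRL line, with 2 pairs, 5 genes rose and 5 fell (0.0297% each). In shRCOR1 2590 rose and 2030 fell (15.4% and 12.1%), and in shRCOR2 3611 and 2489 (21.4% and 14.8%). The 3 tests came from 1 fit with a shared spread, and p-values were adjusted within each line. The adjusted p of a given change therefore differed by line, so these counts do not compare the sizes of change. GARS1 changed by 0.73 in shCTRL and in shRCOR1, both with an SE of 0.12, at limma adjusted p-values of 0.0871 and 0.00273. Only 3 genes were called in each of the 3 lines: ERP29, an endoplasmic reticulum protein, and COA8, a complex IV assembly factor, which rose (0.0119%), and UQCRFS1, which fell (0.00594%). ERP29 was 112 and 110 TPM in untreated shCTRL and 172 and 177 TPM after doxycycline, and COA8 13.9 and 10.8 TPM against 22.8 and 20.8 TPM. The shCTRL calls were the least stable of the 3: without shCTRL doxycycline replicate 1 they numbered 1114, and without any 1 other library 0 to 5. Leaving out libraries gave 2128 to 5446 calls in shRCOR1 and 2720 to 6897 in shRCOR2. Among the 572 members, shCTRL had the smallest of the 3 line changes for 169 of 265 rises and 231 of 307 falls. The same share over all genes tested was not counted. Pair changes of all genes were also less spread in shCTRL, with standard deviations across genes of 0.27 and 0.36. In the knockdown lines these were 0.47 to 0.55. The median rise was 0.41 in shCTRL and 0.63 in each knockdown line, and the median fall was -0.37 in shCTRL and -0.63 in each knockdown line. Of the members 85 (14.9%) differed between lines by the limma F test, compared with 5189 genes (30.8%) of all tested. The rule favours even changes, so the lower share is built into the choice. A gene that missed this test has not been shown to change alike in the 3 lines.

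The shCTRL pairs were also read in genes chosen without them. From the 4 shRCOR1 and shRCOR2 pairs alone, 144 genes rose (0.855%) and 150 fell (0.891%) by the same rule with 4 signs. In the 2 shCTRL pairs, which took no part in that choice, 98 of the 144 rises (68.1%) were higher in both, where 27.5% of all genes tested were, and 11 were lower in both. Of the 150 falls 121 (80.7%) were lower in both shCTRL pairs, where 36.3% of all genes were, and 8 were higher in both. The median shCTRL change was 0.23 for these rises and -0.28 for these falls, against -0.02 over all genes. Their medians in the lines that chose them were 0.83 and -0.81, values the choice itself enlarges.

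**Figure D4:**
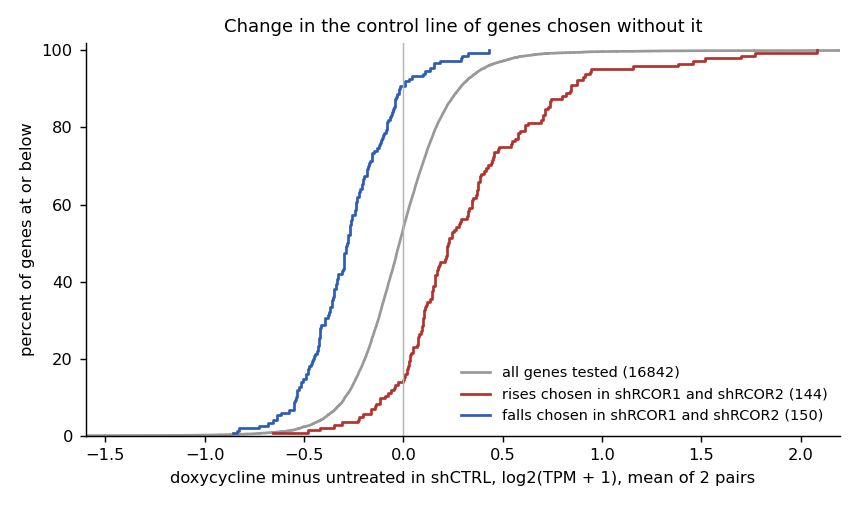
Cumulative share of genes by their mean change in the 2 shCTRL pairs (doxycycline minus untreated log2(TPM + 1)) for 144 rises (red) and 150 falls (blue) chosen in the shRCOR1 and shRCOR2 lines only, and for all 16842 genes tested (grey). The red curve lies to the right and the blue curve to the left of grey, with medians of 0.23, -0.28 and -0.02.

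Reading 1 replicate against the other left few genes. From the 3 pairs of replicate 1 alone, 4 genes were called: ASNS and DDIT4, which rose and were higher in all 3 replicate 2 pairs, and AC010323.1 and FOS, which fell and were higher in all 3 replicate 2 pairs. The 3 pairs of replicate 2 gave 0 calls by limma, and 1831 genes at an unadjusted p below 0.05 with 3 like signs. FOS, an immediate early gene, was 209, 202 and 60.4 TPM in untreated replicate 1 of shCTRL, shRCOR1 and shRCOR2 and 72.8, 50.4 and 16.6 TPM after doxycycline. In replicate 2 it was 1.38, 3.85 and 6.10 TPM untreated and 1.46, 31.7 and 8.66 TPM treated.

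Rises and falls were set beside all genes tested for length, base composition and level. Rises came from slightly shorter transcripts, with a median longest transcript of 2639 bases against 3062 over all genes tested, and were richer in G and C (52.5% against 48.4%). Falls were close to all genes in both, at 3026 bases and 48.6%. Both were more abundant than most genes, with a median mean level of 24.5 TPM for rises and 45.1 TPM for falls against 13 TPM, although level enters the rule through the filter, the pseudocount and limma's variance trend. Protein-coding genes made up 85.1% of members and 76.5% of genes tested. Whether length, base composition or abundance has a part in the calls was not tested.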

How the data were processed

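RNA from 12 libraries was sequenced with NEBNext Ultra II Directional kits. Per the submitters' processing notes, reads were trimmed with Trim Galore 0.6.7, aligned with HISAT2 2.2.1 to GRCh38 (hg38) and quantified with StringTie 2.1.7. The sources used here do not name the strand setting, annotation release or treatment of multiply aligned reads. The authors deposited TPM, FPKM and the mean coverage signal per gene; TPM were used as the main values, FPKM as an alternative, and coverage divided by FPKM as a measure of relative depth. Read counts were not used here, so no counting intervals are given.

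Genes that reached 1 TPM in 2 or more libraries were tested on log2(TPM + 1), pseudocount 1, with limma 3.58.1 (R 4.3.3), a variance trend, 1 term per pair of line and replicate number, and 1 treatment term. Changes within lines and their difference between lines (F test) came from a fit with 6 group means and the replicate number as a block. The replicate numbers pair the samples across groups: deviations of replicate 1 from its group mean correlated between all 15 pairs of groups (0.372 to 0.75). The code was tested on simulated data. Named genes were, by rule, the 12 rises and 12 falls with the largest smallest pair change and a mean of at least 5 TPM, up to 4 called and 2 uncalled members per list, the RCOR genes, and called genes with the smallest p between lines; others named were chosen after their values were seen. The members and gene lists were chosen with earlier results of these data known. Alternatives were other pseudocounts, filters, scalings, blocks and left-out pairs, libraries or lines. Tables and plots were made with matplotlib 3.10.9, scipy 1.17.1, pandas 2.3.3 and numpy 2.4.6 in Python 3.11.15. Promoters came from RefSeq (GRCh38.p14), and gene types, lengths and GC content from GENCODE.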

Additional observations from a re-analysis of the deposited data

Results flagged for a closer look

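Of 82 genes (the 80 members named by the rule, with RCOR1 and RCOR3), 5 had 1 pair far from the other 5, which chance alone gives in about 1 of 20 groups. The INHBE change in shRCOR2 replicate 1 was 3.46, against 2.05 in the next pair. PIMREG, a mitotic regulator, changed by -1.26 in shRCOR1 replicate 2, PIR by -0.453 in shRCOR1 replicate 1, the ribosomal protein gene RPL28 by 0.0392 in shCTRL replicate 2, and SCG5 by 1.42 in shRCOR2 replicate 1.

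The change differed between lines by limma's F test for 20 of the 82, where 30.8% of all genes tested did. These adjusted p-values were lowest for RAB27B, a vesicle GTPase gene (0.000555), with changes of -0.26 in shCTRL, -1.54 in shRCOR1 and -1.68 in shRCOR2. ANKRD11 (0.00111), the urea cycle gene ASL (0.00113), the targeted gene RCOR2 (0.00174), PTTG1 (0.00242), LANCL1 (0.00299), CCNA2 (0.00304) and the ERK phosphatase gene DUSP7 (0.00308) followed in the limma F test. CDKN1A (0.00432), LMO3 (0.00733), VEGFA (0.00829), RPS19 (0.0101), BBC3 (0.016), RCOR1 (0.0176), PLXND1 (0.0273) and EPCAM (0.0295) had larger adjusted p-values by this limma test. NQO1 (0.0372), LSS (0.0402), SLC3A2 (0.0476) and ATP5MC1 (0.0476) were closest to the threshold. Apart from RCOR1, all of these satisfied the rule for a common change, so a shared direction and unequal sizes stood together in them. ASL changed by 0.39 in shCTRL, 1.93 in shRCOR1 and 0.83 in shRCOR2, and ANKRD11 by 0.13, 1.17 and 0.85.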

How the results depend on the processing

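The common counts were 265 rises and 307 falls. With no filter on low values they were 0 and 0 (1707 and 1459 at an unadjusted limma p below 0.05 with 1 direction), without the variance trend 156 and 169, and with 1 value per line 2 and 0, the 2 being ASNS and CHAC1. Without the replicate block (line as the term) they were 422 and 505, and with the replicate block as replicate number 1177 and 1218. Without the shCTRL line they were 144 and 150, without shRCOR1 1 (ASNS) and 0, and without shRCOR2 29 and 8. Leaving out 1 pair gave 22 to 255 rises and 6 to 252 falls. The fits without a line or a pair have fewer samples, those on group means measure another spread, and for the others the cause was not tested. Pseudocounts of 0.1 and 5, a mean of at least 5 TPM, FPKM, median-of-ratios scaling, quantile normalization and TPM without mitochondrial genes kept both counts within 1.5 times.

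Calls in shCTRL numbered 10, with 5 without the filter, 0 with quantile normalization, 0 without the variance trend, 0 with no replicate block and 0 to 1114 without 1 library. With no replicate block, shRCOR1 had 1451 calls of 4620, shRCOR2 2406 of 6100, and the test between lines 1411 of 5189. Leaving out 1 library gave 2128 to 5446, 2720 to 6897 and 2764 to 6333 in the same order. The share of knockdown-line rises higher in both shCTRL pairs was 77.9% with FPKM and 78.8% with quantile normalization, and that of falls 72.5% with quantile normalization; without a filter or a trend no genes were chosen. Replicate 1 gave 0 calls without the filter, 11 at a mean of at least 5 TPM, and 0 with median-of-ratios scaling, quantile normalization or no trend. The 80 named members kept their sign in every alternative, and 0 of them were called in all; they were called in 996 of 1675 alternatives in total. Depth is known only as a ratio, so a gene that was not called may have changed by an amount these 6 pairs cannot resolve.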

Other observations

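FOS was 1 of 63 genes (0.374% of those tested) that were lower after doxycycline in all 3 replicate 1 pairs and higher in all 3 replicate 2 pairs, and 45 genes (0.267%) showed the opposite. EGR1, another immediate early gene, had changes of -1.65, -1.48 and -1.16 in replicate 1 of shCTRL, shRCOR1 and shRCOR2, and -0.12, 3.59 and 1.63 in replicate 2. JUN changed by -1.08, -1.15 and -1.09 in replicate 1 and by 0.65, 1.17 and 0.47 in replicate 2. These values were looked up after the FOS pattern was seen.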
